A study of Mus musculus with 12 samples.

Results

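The genes Gabra2, Gabra3, Gabra4, Gabra5 and Gabra6, which encode alpha subunits of the GABA-A receptor, were examined in the newborn mouse brain, in wildtype animals and in animals that lack the protein kinase KIS. They were taken by gene symbol, a choice made with earlier results of these data known, and are 5 of the 17550 symbols that the arrays carry. Of the main probesets (groups of short probes that lie in 1 exon or part of it), 66 belong to these genes. The 12 arrays are Affymetrix Mouse Exon 1.0 ST arrays, 1 for each whole brain of a newborn female. Of these brains, 6 were wildtype (KIS +/+) and 6 were KIS-ko (KIS -/-, without a functional copy of the gene Uhmk1 that encodes KIS), and every litter of 6 gave 1 brain of each genotype. The KIS-ko line had been backcrossed to C57BL6/N, and each RNA came from a powder of the whole brain. The question was which of these subunits are detected at birth, with what profile along their exons, and whether their transcripts differ between KIS-ko and wildtype littermates.

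The GABA-A receptor is a chloride channel built of subunits around a central pore and opened by the transmitter GABA. In most receptors alpha subunits are combined with beta subunits and with a gamma or a delta subunit. GABA binds between an alpha and a beta subunit, and benzodiazepines bind between an alpha and a gamma subunit, so that the kind of alpha subunit sets much of the pharmacology and of the place of a receptor on the neuron. Gabra2 and Gabra3 encode subunits of synaptic receptors, of which the former is frequent in the forebrain and the latter in monoaminergic and other brainstem and thalamic neurons. Gabra5 encodes a subunit of mostly extrasynaptic receptors known best from the hippocampus. Gabra4 and Gabra6 encode subunits that join the delta subunit in extrasynaptic receptors, those of Gabra6 in the granule cells of the cerebellum, which form mainly after birth. In immature neurons chloride is high, and GABA can then depolarize the cell.

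Starts of 3 of the genes are shown because they differ most in their content of CG dinucleotides, which are in capitals, and because Gabra3 gave the highest signal of the 5 genes and Gabra6 the lowest. Each sequence is the 250 bases before the start that RefSeq lists on assembly GRCm38.p6, on the minus strand, read 5′ to 3′: chr5:71095850-71096099 for Gabra2, chrX:72656920-72657169 for the first of the starts listed for Gabra3, and chr11:42321073-42321322 for Gabra6.
Gabra2: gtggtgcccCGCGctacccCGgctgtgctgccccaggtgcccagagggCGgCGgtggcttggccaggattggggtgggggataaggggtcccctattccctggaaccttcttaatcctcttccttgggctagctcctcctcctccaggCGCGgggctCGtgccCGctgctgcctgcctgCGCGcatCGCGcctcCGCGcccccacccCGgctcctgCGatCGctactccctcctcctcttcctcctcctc
Gabra3: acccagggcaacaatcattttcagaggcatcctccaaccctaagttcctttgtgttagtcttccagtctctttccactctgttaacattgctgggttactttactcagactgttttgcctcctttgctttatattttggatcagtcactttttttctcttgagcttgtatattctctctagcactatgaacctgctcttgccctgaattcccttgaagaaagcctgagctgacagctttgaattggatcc
Gabra6: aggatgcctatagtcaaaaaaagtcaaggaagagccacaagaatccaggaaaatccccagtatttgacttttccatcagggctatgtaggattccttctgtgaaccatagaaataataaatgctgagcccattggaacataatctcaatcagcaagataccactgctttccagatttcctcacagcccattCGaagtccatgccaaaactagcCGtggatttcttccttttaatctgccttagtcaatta
The window of Gabra2 holds 18 CG dinucleotides, that of Gabra6 holds 2 and that of Gabra3 holds 0. Those of Gabra4 and Gabra5 hold 12 and 9. Among 32851 such windows the median was 6 and 7.87% held none. The letters GGGCGG, which include a CG, were found on either strand in the windows of Gabra2 and Gabra4 and in 32.7% of all windows. The letters TATAAA were found in that of Gabra3, on the opposite strand, and in 12.4% of all windows. The order of these counts is not the order of the signals below.

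Values are PLIER signals, a linear intensity summarized over the probes of a probeset. A probeset was kept if its relative SD (standard deviation, SD, over mean) was at most 0.4 in each genotype, and rejected otherwise. Of the 66, 58 were kept. Signals were read against 5222 probesets that lie in introns and serve as controls, whose median was 114 and whose 95th percentile was 713. Of all kept probesets, 44.6% were brighter than this percentile. Uhmk1 was lower in KIS-ko brains, with a log2 difference of -2.11 (SE 0.07, limma adjusted p = 2.9e-07), and no array went against its label. Of 6 neuron markers measured, 6 had a median signal above 713, and their summed signal was 42251 to 45914 in wildtype and 40659 to 45697 in KIS-ko brains. Both arrays of litter 5 stand apart from the others: in 8.04% of genes both lay below the arrays of all other litters and in 12.4% above them, against at most 2.56% and 2.40% for any other litter.

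Gabra3 and Gabra5 gave the highest signals of the 5 genes in the newborn brain, Gabra2 and Gabra4 followed, and Gabra6 was at the level of the intron controls. The level of a gene on an array is the median signal of its kept probesets. For Gabra3 it ranged from 4165 to 5066 over the 6 wildtype brains, with a median of 4772, and from 4199 to 4947 in KIS-ko brains, with a median of 4529.8. For Gabra5 it ranged from 3958 to 4726 in wildtype (median 4494) and from 3850.5 to 4607 in KIS-ko brains (median 4252). The ranges of these 2 genes overlapped in both genotypes, and Gabra3 was above Gabra5 on 11 of 12 arrays.

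Gabra2 ranged from 1797 to 2612 in wildtype brains (median 2401) and from 1805 to 2393 in KIS-ko brains (median 2259.6). Gabra4 ranged from 1119 to 1343 in wildtype brains (median 1250.5) and from 1012 to 1225 in KIS-ko brains (median 1147). Each of the steps from Gabra5 to Gabra2, from Gabra2 to Gabra4 and from Gabra4 to Gabra6 was the same on 12 of 12 arrays, with ranges that did not overlap. Probes differ in how strongly they bind, so that this order describes signals and is not an order of mRNA amounts. In a whole brain, fewer cells of a type and less RNA per cell cannot be told apart.

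Gabra6 ranged from 62.0 to 71.3 in wildtype (median 67.0) and from 46.7 to 76.7 in KIS-ko brains (median 55.1). No probeset of this gene was above 713, and 2 of the 8 that were kept were above the median of the controls. It is therefore not well above background, and its differences below carry no more than the variation of dim probesets. Of 8 markers of the cerebellum, where Gabra6 is known to be expressed later, 5 had a median above 713. The brightest was Zic1, a transcription factor of granule cell precursors and of other neural cells, which ranged from 3367 to 3775 in wildtype brains. The 3 others were dim: Atoh1, a transcription factor more specific to granule cell precursors, had a median of 229 with 0 of 6 probesets above 713, Pcp2, a Purkinje cell protein, had a median of 241 with 1 of 8, and Cbln3, a protein of more mature granule cells, ranged from 141 to 214.

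**Figure D1:**
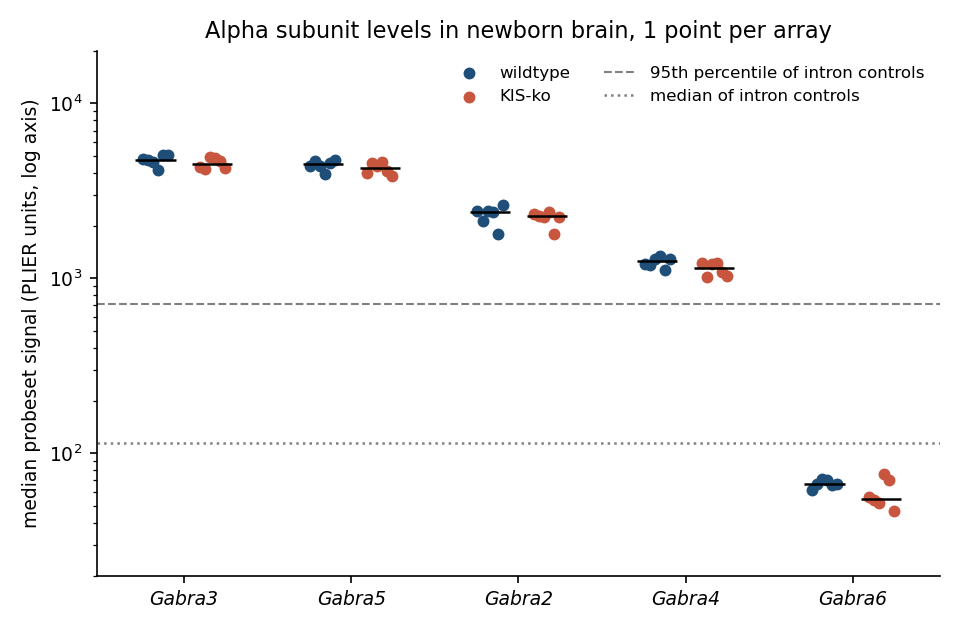
Level of each alpha subunit gene on each array (median signal of its kept probesets, PLIER units on a log axis), with wildtype and KIS-ko arrays as separate points and a bar at the median of each group of 6. Dashed and dotted lines are the 95th percentile (713) and the median (114) of the intron controls: Gabra3, Gabra5, Gabra2 and Gabra4 lie above the former on all arrays and Gabra6 below the latter.

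Set among all 17279 genes with a kept probeset, the wildtype level of Gabra3 was above that of 97.8% of genes, that of Gabra5 above 97.4%, that of Gabra2 above 90.9%, that of Gabra4 above 77.5% and that of Gabra6 above 6.02%. All kept probesets of Gabra2 (13 of 13), Gabra3 (13 of 13) and Gabra5 (12 of 12) were above 713. Of Gabra4, 11 of 12 were.

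The genes lie on the minus strand of 4 chromosomes. In the positions of the table, whose genome build is not given in the sources used here, the probesets of Gabra2 span chr5:71352548-71487068 and those of Gabra4 span chr5:71963157-72049468, in the same cluster of receptor genes as Gabrg1 and Gabrb1. Gabra5 spans chr7:64663185-64765240, Gabra6 chr11:42120016-42134379 and Gabra3 chrX:69679308-69901460. The probesets are numbered here from the 5′ end of each gene.

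Along each of the 4 detected genes the same probesets were the brightest and the dimmest in both genotypes. In Gabra2 the brightest was probeset 3 (3748 ± 436 in wildtype and 3731 ± 521 in KIS-ko brains, SD, n = 6) and the dimmest was probeset 1 (814 ± 90.5 and 796 ± 100.1). In Gabra3 the brightest was probeset 10 (8487 ± 390 and 7973 ± 383) and the dimmest was the last, probeset 13 (1751 ± 174 and 1758 ± 168). In Gabra4 the brightest was probeset 11 (1754 ± 158 and 1722 ± 226) and the dimmest of those kept was probeset 1 (352 ± 25.1 and 328 ± 54.5). In Gabra5 the brightest was probeset 10 (7351 ± 479 and 7347 ± 431) and the dimmest was probeset 1 (1316 ± 92.3 and 1312 ± 185).

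The 5′ probeset was thus the dimmest in Gabra2, Gabra4 and Gabra5, and the 3′ probeset in Gabra3. Probeset 1 of Gabra4 was under 713. Signals also differed between probesets inside 1 exon, and since probes differ in binding these profiles are not amounts of exons. In Gabra4 the table assigns probesets 1 to 5 to the same exon, and their wildtype means ran from 33.1, in a probeset that was rejected, to 1428. In the last exon of Gabra3 probeset 12 gave 3937 ± 89.5 and probeset 13 gave 1751 ± 174 in wildtype brains.

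In Gabra6 the brightest kept probeset was number 3 (237 ± 60.5 in wildtype and 285 ± 51.8 in KIS-ko brains), and the dimmest was number 1 (15.6 ± 5.26 and 19.3 ± 4.96). Of its 15 probesets, 7 were rejected for their spread, whereas 1 of the 51 probesets of the other genes was.

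**Figure D2:**
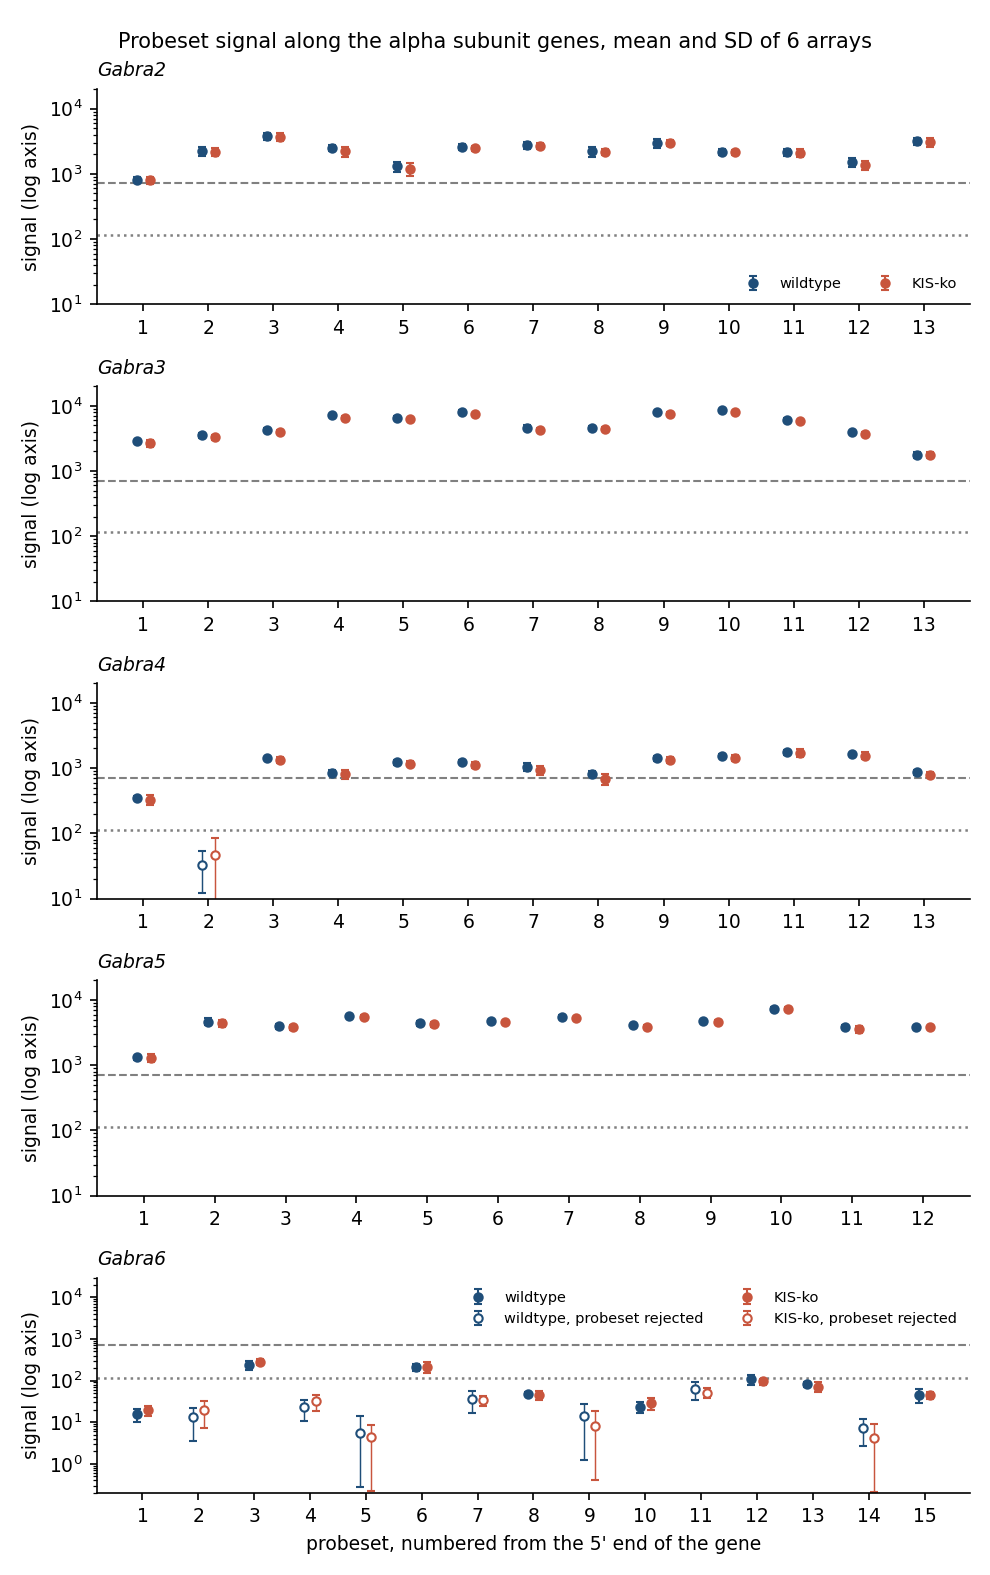
Signal of every main probeset of the 5 genes, numbered from the 5′ end, as mean and SD of 6 arrays per genotype on a log axis (open points are rejected probesets, and bars whose lower end would fall under 0 are shortened). Lines mark the 95th percentile (713) and median (114) of the intron controls: the points of wildtype and KIS-ko brains run close together along Gabra2, Gabra3, Gabra4 and Gabra5, and no probeset of Gabra6 reaches the upper line.

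No change in exon use between the genotypes passed the test. The splicing index, the log2 signal of a probeset minus the mean of its gene, was tested with limma across 202944 probesets. Of all these, 2 passed an adjusted p of 0.05 (0.000985%) and 6.11% had an unadjusted p under this value, whereas 0 of the 58 probesets of the alpha subunits did at either level. The lowest p in Gabra2 was that of probeset 4, 47 bases long and 61.0 kb from the 5′ end, with a splicing index difference of -0.11 (SE 0.06, unadjusted p = 0.0956, limma adjusted p = 0.840). In Gabra4 it was that of probeset 8, with a difference of -0.14 (SE 0.09, limma adjusted p = 0.860). In Gabra3, Gabra5 and Gabra6 the lowest p belonged to probeset 13 (a difference of 0.09, SE 0.07), probeset 11 (-0.06, SE 0.06) and probeset 13 (-0.22, SE 0.13). Without litter 5, 4 probesets of these genes had an unadjusted p under 0.05, and 0 passed the adjusted threshold.

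The transcripts of the 4 detected genes were lower on average in KIS-ko brains, with log2 differences from -0.12 to -0.05 in the signals as deposited, but none passed the test. For this comparison the value of a gene is the mean over its kept probesets of log2(signal + 16), so that differences of dim genes are understated. With limma and the litter as a block, 1 of 17279 genes (Uhmk1) passed an adjusted p of 0.05 (0.00579%), and 0 of the 5 alpha subunit genes did. At an unadjusted p under 0.05 there were 6.16% of all genes and 0 of the 5. In the signals as deposited 69.8% of all genes were lower in KIS-ko brains, with a median difference of -0.04, and 4 of the 5 alpha subunit genes were lower, with a median of -0.05. With each array centred on its median 37.7% of all genes were lower (median 0.02) and 2 of the 5 alpha subunit genes (median 0.0042), and with arrays quantile-normalized again 48.6% (median 0.0021) and 4 of the 5 (median -0.03). Genes whose ranges did not overlap between genotypes made 0.208% of all genes, and there was none among the 5.

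Markers of cell types and brain regions were read beside these differences, on the same log2 scale. Counts of lower markers stand beside 69.8% of all genes in the signals as deposited and 37.7% with arrays centred. Of 7 striatal markers 6 were lower in KIS-ko brains (median -0.10), and 5 with arrays centred on their medians (median -0.05). Their summed signal ranged from 6696 to 7883 in wildtype and from 6175 to 7462 in KIS-ko brains. Of 5 markers of astrocytes and radial glia 5 were lower (median -0.09), and 4 with arrays centred (median -0.04), with summed signals from 17620 to 20959 and from 17802 to 19798. Of 6 hindbrain markers, none of them above 713, 5 were lower (median -0.09), and 3 with arrays centred (median -0.03), with summed signals from 1723 to 2057 and from 1417 to 2243. Of 6 cortical and hippocampal markers 2 were lower (median 0.02), and 0 with arrays centred (median 0.08), with summed signals from 17396 to 19867 and from 17755 to 21777. The medians of the 8 other lists lay between -0.05 and 0.03, and between 0.0071 and 0.087 with arrays centred. The erythroid list had the highest median of all marker lists, 0.03 (1 of 5 lower) and 0.087 with arrays centred (0 of 5 lower). No marker passed the adjusted threshold, the summed signals of the 2 genotypes overlapped in each list, and the part of these markers in the values of the alpha subunits was not tested.

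Among the 4 detected genes Gabra4 had the largest difference on this scale. Its gene value ranged from 10.03 to 10.20 in wildtype brains (median 10.12) and from 9.87 to 10.17 in KIS-ko brains (median 10.01). Its log2 difference was -0.12 (SE 0.05, 95% interval -0.24 to 0.00077, unadjusted p = 0.0512, limma adjusted p = 0.685). It was lower in 5 of 6 litters, from -0.33 in litter 6 to 0.02 in litter 4. Without litter 6 the difference was -0.08, and with arrays centred on their medians it was -0.06. All 12 of its kept probesets were lower on average, where 66.2% of all probesets were. This does not set Gabra4 apart: 12 of 12 were lower in Gabra5 and 12 of 13 in each of Gabra2 and Gabra3. Probesets of 1 gene were read on the same arrays and are not independent. Of the 58 probesets of the 5 genes, 1 had an unadjusted p under 0.05 and 0 passed the adjusted threshold, against 6.63% and 0.00487% of all probesets. The probeset of lowest p was number 6 of Gabra4, with 1251 ± 73.5 in wildtype and 1110.3 ± 122 in KIS-ko brains (log2 difference -0.17, SE 0.07, unadjusted p = 0.0309, limma adjusted p = 0.751).

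Gabra3 ranged from 12.18 to 12.36 in wildtype brains (median 12.27) and from 12.09 to 12.28 in KIS-ko brains (median 12.16). Its log2 difference was -0.09 (SE 0.05, 95% interval -0.21 to 0.03, limma adjusted p = 0.685), and it was -0.03 with arrays centred on their medians and -0.06 with the median over probesets. It was lower in 4 of 6 litters, equal within 0.01 in litter 3 and higher by 0.11 in litter 4. In litters 1 and 6 all 13 probesets were lower, and in litter 4 only 1 of them was.

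Gabra5 ranged from 11.94 to 12.11 in wildtype brains (median 12.07) and from 11.89 to 12.10 in KIS-ko brains (median 12.02), a difference of -0.05 (SE 0.06, 95% interval -0.18 to 0.07, limma adjusted p = 0.747). Gabra2 ranged from 10.72 to 11.25 in wildtype brains (median 11.11) and from 10.69 to 11.23 in KIS-ko brains (median 11.05), a difference of -0.05 (SE 0.05, 95% interval -0.17 to 0.07, limma adjusted p = 0.750). With each array centred on its median, both differences turned to slightly positive values, 0.0042 for Gabra5 and 0.0064 for Gabra2. Without litter 4 they were -0.09 for both genes, and without litter 6 they were -0.02 for both. Gabra5 was at -0.03 without litter 1, and Gabra2 at -0.03 without litter 3.

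Gabra6 ranged from 6.31 to 6.56 in wildtype brains and from 6.34 to 6.51 in KIS-ko brains. Its difference was 0.02 (SE 0.06, 95% interval -0.11 to 0.16, limma adjusted p = 0.891), with 3 litters on each side. It was -0.15 with the median over probesets in place of the mean and 0.08 with arrays centred, and in both settings its size was above that of Gabra4.

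**Figure D3:**
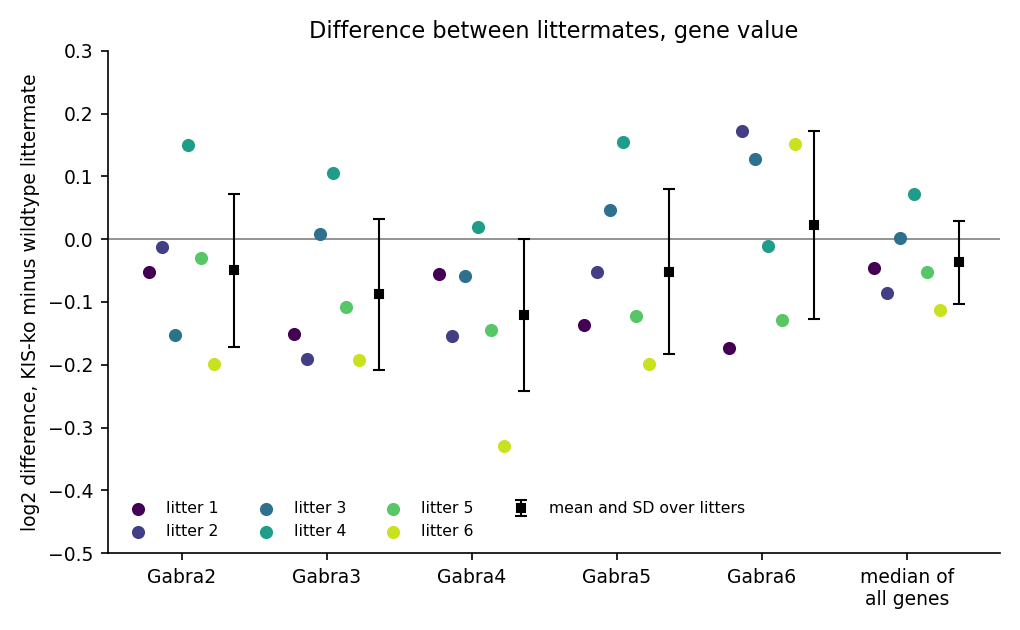
Log2 difference in gene value, KIS-ko minus wildtype littermate, for each alpha subunit gene and for the median of all genes, with 1 point per litter and a square with the mean and SD over the 6 litters. Litter 4 lies above 0 for Gabra2, Gabra3, Gabra4, Gabra5 and the median gene, and litter 6 is the lowest for Gabra2, Gabra3, Gabra4, Gabra5 and the median gene, with -0.33 for Gabra4.

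The litters differed in the direction of the detected genes and of the median gene. The median difference of all genes was from -0.11 in litter 6 to 0.07 in litter 4, and was below 0 in 4 of 6 litters. In litter 6 all 13 probesets of Gabra2, all 13 of Gabra3, 11 of 12 of Gabra4 and 12 of 12 of Gabra5 were lower in the KIS-ko brain. In litter 4 the numbers were 1, 1, 4 and 1. The other litters were mixed: in litter 3 the median gene was at 0.0023, all 13 probesets of Gabra2 were lower (a gene difference of -0.15) and Gabra5 was at 0.05, and in litter 2 the median gene was at -0.09 and Gabra2 at -0.01. Set against the median gene of the same litter, Gabra4 was lower in 6 of 6 litters, with a mean difference of -0.08 (SD 0.07). By a two-sided exact permutation of signs over the litters p was 0.03125, the smallest value that 6 litters allow, with no adjustment for the genes tested. With the signals of each array centred on their median instead, Gabra4 was lower in 5 of 6 litters and higher by 0.02 in litter 1, with a mean difference of -0.06 (SD 0.06, exact permutation p = 0.0625). Of all genes, 1.60% were below the median gene in all litters. Against the median gene the mean difference was -0.05 for Gabra3 (SD 0.06, lower in 4 of 6 litters, exact permutation p = 0.125), -0.01 for Gabra2 (SD 0.09, exact permutation p = 0.781), -0.01 for Gabra5 (SD 0.08, exact permutation p = 0.625) and 0.06 for Gabra6 (SD 0.18, exact permutation p = 0.469).

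The fold change that the methods define averages the KIS-ko to wildtype ratios of probesets, each with a weight of 1 over its relative SD. By it, Gabra4 was at 0.926 ± 0.068 of the wildtype level (SD over 6 litters, exact permutation p = 0.0625). Gabra3 was at 0.944 ± 0.074 (exact permutation p = 0.0938), Gabra5 at 0.973 ± 0.076 (exact permutation p = 0.438), Gabra2 at 0.978 ± 0.075 (exact permutation p = 0.50) and Gabra6 at 1.08 ± 0.13 (exact permutation p = 0.188). Gabra4 and Gabra6 were changed by at least 6%, as were 26.4% of all genes. Gabra4 was changed by less than this with arrays centred on their medians (0.963), with arrays quantile-normalized again (0.953), without the relative SD filter (0.941) and without litter 6 (0.95), and Gabra6 by the ratio of the group means (1.01), with probesets matching 1 place only (1.05) and without litter 3 (1.05). Gabra3 was changed by at least 6% without litter 3 (0.932) and without litter 4 (0.911), and Gabra2 without litter 4 (0.934). The value of Gabra6 rests on 8 dim probesets.

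The alpha subunits were not shown to differ from each other in their difference between genotypes. Of the 10 pairs of genes, 0 passed an exact sign-flip permutation test at 0.05, unadjusted or adjusted over the pairs. The smallest p that 6 litters allow is 0.03125, so that a single pair could not pass after adjustment, and 4 of the pairs hold Gabra6, which is not well above background. The lowest p was 0.0938 (adjusted p = 0.469, exact test). It belonged to Gabra4 against Gabra5, with a difference of -0.07 (95% interval -0.16 to 0.02), and to Gabra2 against Gabra4, with a difference of 0.07 (-0.03 to 0.17). The interval between Gabra3 and Gabra5 was narrower (-0.09 to 0.02), and those with Gabra6 were wide, up to -0.38 to 0.10 for Gabra4.

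Over all 6 litters the SD of the gene value over wildtype brains was 0.19 for Gabra2, against 0.06 to 0.10 for the others, and without litter 5 it was 0.08 for Gabra2 and 0.03 to 0.08 for the others, so that the place of Gabra2 rests on this litter. With arrays centred on their medians, both brains of litter 5 were low, at 10.78 in the wildtype and 10.79 in the KIS-ko brain, whereas the 10 other arrays lay between 10.99 and 11.19. The difference between littermates was small beside this gap. The mean of litter 5 minus that of the other litters was -0.32 on the log2 scale, or 19.9% lower, and 4.53% of all genes had a shift of litter 5 at least as large in either direction. All 13 probesets of Gabra2 were lower in litter 5, from -0.07 in probeset 1 to -0.56 in probeset 5, and in 11 of 13 both brains lay below all others. The shift of litter 5 was 0.07 for Gabra3, -0.04 for Gabra4, 0.12 for Gabra5 and 0.16 for Gabra6. Of the neighbours of Gabra2 in the cluster, Gabrb1 was shifted by -0.32, with both brains below all others, and Gabrg1 by -0.11, whereas Gabra4, which lies between Gabra2 and Gabrb1, was within the range of the other litters. Both brains lay below all others in 4 of the 11 partner subunits listed below, against 8.04% of all genes. This also held for 2 of 8 genes for synthesis, uptake and breakdown of GABA and for 2 of 6 neuron markers. Without litter 5 the difference between genotypes in Gabra2 was -0.05 (SE 0.06). In litter 5 the neuron markers were shifted by a median of 0.09 (from -0.24 to 0.15) and the cortical and hippocampal markers by a median of -0.07 (from -0.13 to 0.12). All markers of 4 lists were shifted upwards, those of the cerebellum by a median of 0.13 (from 0.0025 to 0.21), the erythroid ones by 0.12 (from 0.02 to 0.20), those of the hindbrain by 0.10 (from 0.03 to 0.15) and those of the meninges by 0.09 (from 0.07 to 0.12). Of all genes, 26.3% had a shift below that of Gabra4 (-0.04) and 53.7% below that of Gabra3 (0.07). For Gabra5 (0.12) it was 66.3%, so that upward shifts of this size were common. The medians of the 6 other lists lay between -0.02 and 0.07. The part of these markers in the value of Gabra2 was not tested.

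**Figure D4:**
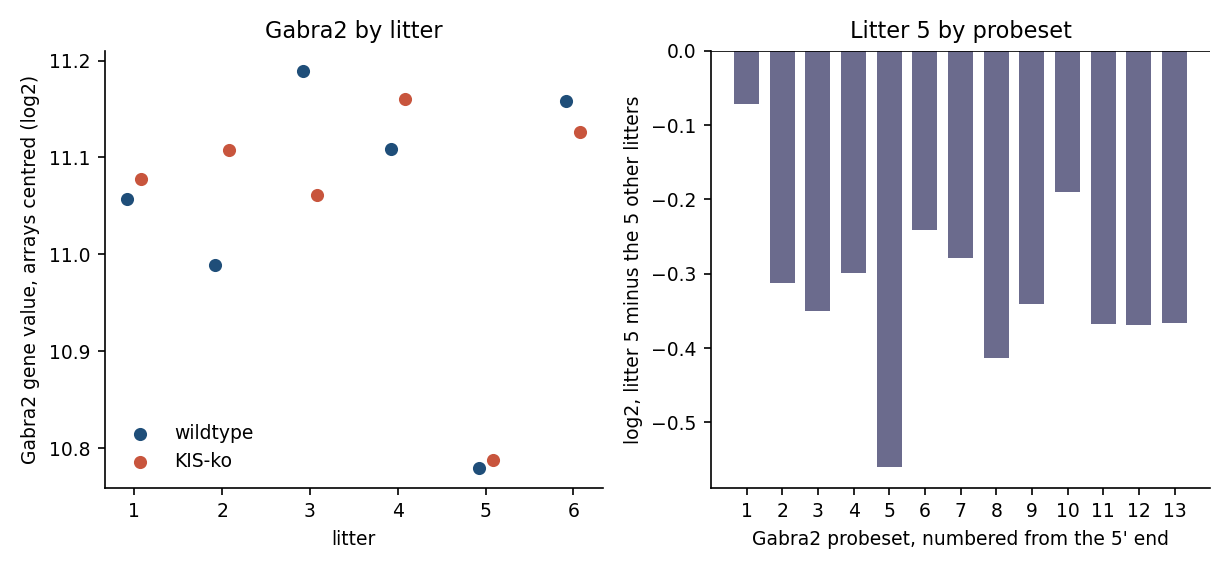
Left, gene value of Gabra2 in each brain by litter (log2, arrays centred on their medians), with wildtype and KIS-ko littermates side by side. Right, difference of litter 5 from the 5 other litters for each of the 13 probesets numbered from the 5′ end (log2): all are below 0, from -0.07 to -0.56.

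The genes whose values over the 12 arrays were most like those of each alpha subunit were found among 14705 genes with at least 4 probesets, by Pearson's r of centred gene values, given as a description since the arrays share litters and scaling. For Gabra2 they were Pds5b (r = 0.979), Fbxo18 (0.962) and 4931406C07Rik (0.957), and without litter 5 these values were 0.919, 0.759 and 0.775. For Gabra3 they were Ubqln1 (0.877), Arl2bp (0.873) and Laptm4b (0.861), and for Gabra4 they were Rapgef4 (0.859), Cyld (0.845) and Ctso (0.841). For Gabra5 they were Sh3glb1 (0.924), D3Bwg0562e (0.923) and Nfe2l1 (0.922), and for Gabra6, Cpb2 (0.956), Angptl7 (0.947) and Gpr20 (0.944). Between the alpha subunits themselves r ran from -0.59 (Gabra2 with Gabra5) to 0.55 (Gabra3 with Gabra5), and without litter 5 these values were -0.05 and 0.21.

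The genes that act with the alpha subunits were not called either. Counts of lower genes in the lists that follow stand beside 69.8% of all genes in the signals as deposited and 37.7% with arrays centred, and counts of genes that passed stand beside 0.00579%. Of 11 partner subunits measured, 0 passed the adjusted threshold in either direction, 9 were lower in KIS-ko brains (5 with arrays centred on their medians) and their median difference was -0.03 (0.02 with arrays centred), against -0.04 for all genes. That with the lowest p was Gabrg1, a gamma subunit, with a difference of -0.20 (SE 0.08, limma adjusted p = 0.685; -0.14 with arrays centred). The study singled out Gabrg1 on these same arrays, so that this value is not independent of its choice. Gabrp, the pi subunit, had a difference of -0.10 (SE 0.05; -0.04 with arrays centred) and Gabre, the epsilon subunit, of -0.15 (SE 0.08; -0.10), and the median signals of both were dim, 72.9 and 195 in wildtype brains.

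Of 15 genes for anchoring and trafficking of the receptor, 0 passed, 13 were lower (8 with arrays centred) and the median was -0.06 (-0.0011). The lowest p values were those of Trak2, a kinesin adaptor (-0.12, SE 0.06), Hap1, which takes part in the transport of receptors to the surface (-0.10, SE 0.05), and Rdx, which anchors receptors with the subunit of Gabra5 to actin (-0.07, SE 0.05). With arrays centred these differences were -0.07, -0.04 and -0.02. Of 8 genes for synthesis, uptake and breakdown of GABA, 0 passed, 8 were lower (7 with arrays centred) and the median was -0.09 (-0.03). Slc6a12, a transporter of betaine and GABA, had a difference of -0.18 (SE 0.05, unadjusted p = 0.00355, limma adjusted p = 0.685) and was lower in 6 of 6 litters. It was dim, with a median of 366 in wildtype brains and 2 of 16 probesets above 713. Slc6a13, another GABA transporter, had -0.10 (SE 0.05) and Abat, the transaminase that degrades GABA, had -0.09 (SE 0.06). With arrays centred these 3 differences were -0.12, -0.04 and -0.04.

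Of 4 cation chloride cotransporters, which set the chloride gradient that the receptor uses, 0 passed, 4 were lower (2 with arrays centred) and the median was -0.07 (-0.01). Slc12a2, which brings chloride into immature neurons, had a difference of -0.13 (SE 0.06, unadjusted p = 0.0507, limma adjusted p = 0.685), Slc12a7 had -0.08 (SE 0.05) and Slc12a5, which extrudes chloride from mature neurons, had -0.05 (SE 0.05). With arrays centred these were -0.08, -0.03 and 0.0014. Slc12a7 was dim, with a median of 361 in wildtype brains and 1 of 30 probesets above 713.

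**Figure D5:**
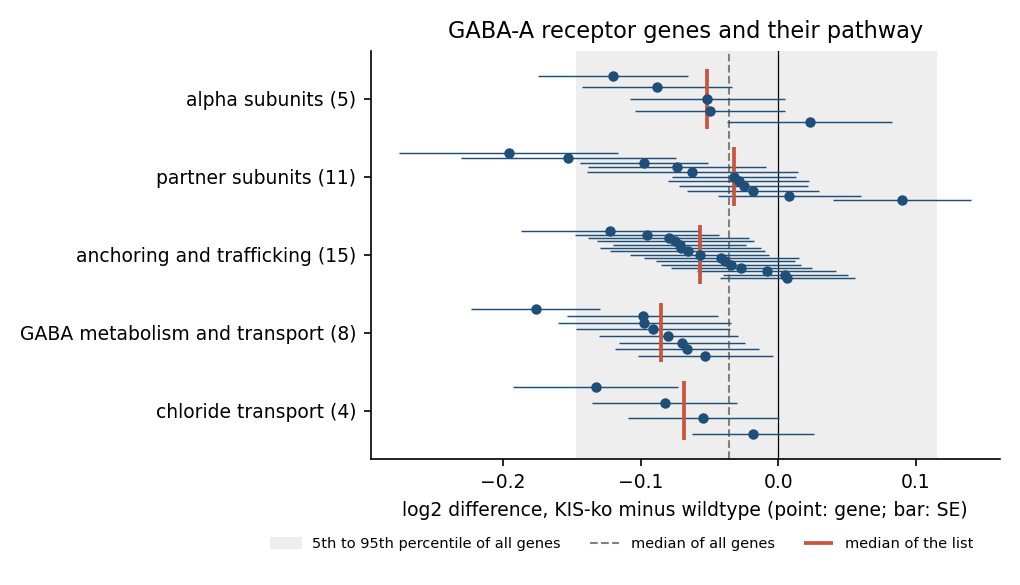
Log2 difference, KIS-ko minus wildtype, of each measured gene of the alpha subunits and of 4 lists of genes of the GABA-A receptor pathway (points with SE, number of genes in brackets, vertical bar at the median of the list). The shaded band is the 5th to 95th percentile of all genes (-0.15 to 0.11) and the dashed line their median (-0.04): list medians lie between -0.09 and -0.03 in the signals as deposited, and between -0.03 and 0.02 with arrays centred on their medians.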

How the data were processed

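Arrays were read by the authors with the Affymetrix Expression Console, quantile-normalized at the exon level and summarized with PLIER. The deposited intensity is this linear signal per probeset. Of the 229581 probesets deposited, 221417 main ones with a symbol were used. Array medians lay between 459.9 and 526 and no arrays were identical. Precision is limited by the 12 arrays and, in dim genes, by background.

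Gene values (pseudocount 16, relative SD at most 0.4), probesets and splicing indexes (genes with at least 3 probesets) were fitted across the whole table with limma 3.58.1 in R 4.3.3, with the litter as a fixed block and Benjamini-Hochberg adjustment. Littermates are paired by the litter number assigned to each sample. The correlation of their deviations from genotype means was 0.272, -0.06, 0.136, -0.11, 0.473 and -0.11 in litters 1 to 6. These values show no likeness of littermates in litters 2, 4 and 6. Single values over litters and pairs of genes were tested with an exact sign-flip permutation test in Python 3.11.15 with scipy 1.17.1. Labels do not say more of replicates than 1 brain per array. The members and lists were chosen with earlier results of these data known. Genes were named by rule: the 5 genes, Uhmk1, the 3 genes of lowest p in each list and the 3 most alike, and per gene the brightest, the dimmest and the probeset of lowest splicing index p. Zic1, Atoh1, Pcp2, Cbln3, Gabrb1 and the probesets of 1 exon were chosen after their values were seen, as were the median gene as a reference, the test over litters with arrays centred, and the comparison of litter 5 and values without it. A gene of the chloride transport list is not reported here. Fits were run on simulated data, with noise drawn independently for each probeset. The planted gene differences were larger than those of the alpha subunits. The simulation thus does not cover differences of their size or noise shared between probesets.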

Additional observations from a re-analysis of the deposited data

Results flagged for a closer look

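Both values were flagged because 1 brain lies far from the 5 others of its genotype. The gene value of Gabra2 was 10.72 in the wildtype brain of litter 5 (gap to the nearest brain over the range 0.636) and 10.69 in the KIS-ko brain of litter 5 (0.655). Of the 10 groups tested (5 genes in 2 genotypes) 2 were flagged, where chance flags about 1 in 20, and the 2 are littermates.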

How the results depend on the processing

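The number of alpha subunits past the adjusted threshold was 0 under all alternatives run. At an unadjusted p under 0.05 it was 1 (Gabra4) without the replicate block, with a pseudocount of 64, with a relative SD limit of 0.2 and with trend and robust moderation, and from 0 to 2 with a litter left out (2, Gabra3 and Gabra4, without litter 4). The replicate block, which pairs littermates, changed no adjusted call of these genes. Its removal raised the SE of Gabra2 from 0.055 to 0.094 and that of Gabra4 from 0.055 to 0.056. The SE fell in Gabra3 (0.054 to 0.047), Gabra5 (0.056 to 0.050) and Gabra6 (0.060 to 0.052).

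With arrays centred on their medians the differences of Gabra2 and Gabra5 turned to 0.0064 and 0.0042. That of Gabra6 turned to -0.15 with the median over probesets, and to -0.0068, -0.011 and -0.0030 without litters 2, 3 and 6. With the median over probesets the differences of Gabra2, Gabra3, Gabra4 and Gabra5 minus Gabra6 turned to 0.10, 0.095, 0.015 and 0.082 and that of Gabra3 minus Gabra5 to 0.012. That of Gabra2 minus Gabra5 turned to -0.014, -0.0054 and -0.016 without litters 1, 2 and 5, in a range from -0.016 to 0.042. With a litter left out, the difference was from -0.09 to -0.02 in Gabra2, -0.13 to -0.07 in Gabra3, -0.15 to -0.08 in Gabra4, -0.09 to -0.02 in Gabra5 and -0.011 to 0.053 in Gabra6.

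Over all genes, the adjusted calls were 2 with a pseudocount of 64, without the relative SD filter and with trend and robust moderation, 5 with the limit of 0.2 and with dim probesets left out, and from 1 to 4 with a litter left out. Unadjusted calls were 644 with dim probesets left out and from 579 to 4017 with a litter left out. Splicing indexes past the adjusted threshold were 19 without the block, 10 with a pseudocount of 64, 5 with the limit of 0.2, 18 with dim probesets left out, 0 by limma with probesets matching 1 place only (10364 had an unadjusted p under 0.05), 7 with trend and robust moderation, and from 2 to 4 with a litter left out. Of the alpha subunits, 1 splicing index had an unadjusted p under 0.05 with dim probesets left out, and from 0 to 4 with a litter left out.

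The fold change of Gabra6 was 7.31 without the relative SD filter, and its level 33.6 without this filter and 83.2 with probesets matching 1 place only. The level of Gabra4 was 1097 from the mean of log2 values. The share of probesets above the intron controls was 84.6% in Gabra4 without the filter, and 100% in Gabra4 and 25% in Gabra6 with the median of the controls as limit. Gabra6 has no value with the limit of 0.2 or with dim probesets left out, since no probeset remains. The cause of these changes was not tested.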
